A study of Homo sapiens with 32 samples.

Results

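NORAD, TUG1, KCNQ1OT1 and OIP5-AS1, a set of 4 long noncoding RNAs (lncRNAs), were examined for peaks of N6-methyladenosine (m6A) in PANC-1, a long-established cell line from a human pancreatic ductal adenocarcinoma. A peak belonged to a gene if it overlapped the hg19 interval of that gene by at least 1 bp. This held for 178 of the 424904 peaks in the 3 deposited lists. CFL1 knockout gave 64 of 139023 peaks, METTL3 knockout gave 66 of 128811 peaks, and control gave 48 of 157070 peaks. By gene, 10 peaks lay in NORAD, 39 in TUG1, 106 in KCNQ1OT1 and 23 in OIP5-AS1.

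The study enriched fragments of total RNA with an anti-m6A antibody and sequenced them beside unselected input RNA. CFL1 encodes cofilin 1, a protein that severs actin filaments, and METTL3 encodes the catalytic subunit of the enzyme complex that writes m6A. Each list holds peaks of 2 libraries, called here by the numbers in the peak names: CFL1 knockout 3 and 5, METTL3 knockout 3 and 5, and control 1 and 2. All groups are PANC-1 cells with no other genotype or treatment given in the labels of these samples. The labels call the altered cells knockouts, while the peak names carry the letters si. The sources used here do not say whether each is 1 clone or a pool. Peaks do not show whether CFL1 or METTL3 was absent, so the genotypes were not checked. No label states that libraries of the same group were made from separate cultures, and p-values therefore measure only the spread between these libraries, which may be technical.

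An lncRNA is a long transcript that works as RNA rather than as a template for protein. The complex that contains METTL3 places m6A on adenosines, mostly within a short consensus whose core reads GGAC, and reader proteins then bind the marked RNA and affect its processing, decay or location. The 4 transcripts work in different places. KCNQ1OT1 is made antisense to the potassium channel gene KCNQ1 within an imprinted cluster and acts near its own locus, where it keeps neighbouring genes silent. TUG1 is a spliced, largely nuclear RNA that has been linked to chromatin regulators. RefSeq, as used here, lists TUG1 as protein coding, and NORAD, KCNQ1OT1 and OIP5-AS1 as lncRNA. TUG1 is called an lncRNA here after the name of the set. NORAD is an abundant, mostly cytoplasmic RNA that binds Pumilio proteins and is needed for stable chromosome number. OIP5-AS1, also known as cyrano, starts next to OIP5 on the opposite strand and has been linked to the RNA-binding protein HuR, and in mouse to the decay of a microRNA.

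The peak lists carry no strand. Peaks over KCNQ1OT1 therefore cannot be told apart from peaks on KCNQ1, which spans beyond it on both sides, and those near the start of OIP5-AS1 cannot be told apart from peaks on OIP5. Levels of the RNAs in the input were not examined, so more or fewer peaks and more or less RNA cannot be told apart. Read depth is unknown.

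Some knockout libraries, and neither control library, had a peak across the start of 3 of the genes, and the RefSeq promoters of these genes (GRCh38.p14, gene strand, 5′ to 3′) are shown for that reason. This held for 3 of 4 knockout libraries at NORAD, where the control peaks began 17 and 16 bp after the start, for 3 of 4 at TUG1 and for 2 of 4, both METTL3 knockout, at OIP5-AS1. How many other gene starts show the same was not computed, since no hg19 annotation was used here. Each runs from 250 bases before the gene's start to 50 bases after it, and capitals mark the bases after the start. The windows are chr20:36050911-36051210 on the minus strand for NORAD, chr22:30969015-30969314 on the plus strand for TUG1 and chr15:41283740-41284039 on the plus strand for OIP5-AS1.

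NORAD: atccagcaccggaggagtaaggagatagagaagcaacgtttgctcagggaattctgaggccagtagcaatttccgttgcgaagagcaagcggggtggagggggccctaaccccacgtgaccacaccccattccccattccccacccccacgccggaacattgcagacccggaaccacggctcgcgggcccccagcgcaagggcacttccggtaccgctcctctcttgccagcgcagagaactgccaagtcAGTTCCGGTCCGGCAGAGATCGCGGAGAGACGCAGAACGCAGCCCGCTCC

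TUG1: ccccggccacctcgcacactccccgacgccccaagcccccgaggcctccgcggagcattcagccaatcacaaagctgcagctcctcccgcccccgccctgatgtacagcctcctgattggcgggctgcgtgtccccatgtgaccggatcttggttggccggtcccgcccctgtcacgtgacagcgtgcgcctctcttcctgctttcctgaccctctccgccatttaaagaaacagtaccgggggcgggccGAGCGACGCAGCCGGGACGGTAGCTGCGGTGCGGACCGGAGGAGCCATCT

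OIP5-AS1: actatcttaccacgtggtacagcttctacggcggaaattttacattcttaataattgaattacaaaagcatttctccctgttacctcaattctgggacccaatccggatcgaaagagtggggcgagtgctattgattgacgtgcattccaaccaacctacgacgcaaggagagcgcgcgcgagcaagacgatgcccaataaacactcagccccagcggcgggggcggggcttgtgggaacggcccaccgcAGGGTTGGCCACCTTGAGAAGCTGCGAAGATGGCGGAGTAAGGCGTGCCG

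The letters GGAC were searched in these windows on both strands. TUG1 held GGAC 2 times on the gene strand, both within the bases in capitals, at positions 15 and 33 counted from the gene's start, and 2 times on the other strand. NORAD held none on the gene strand and 1 on the other strand, and OIP5-AS1 held 1 on the gene strand, upstream of the start, and none on the other. Of 35116 promoters of the same length, 66.3% held GGAC on the gene strand, 87.4% held it on either strand, 18.9% held it in the bases after the start and 1.91% held it 2 or more times there. The hg19 start used for the peaks need not be the same base as the RefSeq start of these windows. These matches describe the letters of the window and are not measured sites of methylation.

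Across the 4 genes, the number of peaks moved in different directions. TUG1 and KCNQ1OT1 had more peaks in every knockout library than in either control library, OIP5-AS1 had fewer, and NORAD overlapped between groups. At a fold enrichment of at least 4, TUG1 no longer separated (both differences 0.5), and at −log10 q of at least 10 the METTL3 knockout difference of OIP5-AS1 turned to 1.5. Scaled to 100000 peaks per library, METTL3 knockout lay above control in NORAD, with means of 3.11 and 1.90 peaks. The length of KCNQ1OT1 under peaks averaged 2.18 times the control value in CFL1 knockout and 3.52 times in METTL3 knockout. OIP5-AS1 went the other way, with 0.228 and 0.326 times the control length.

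**Figure D1:**
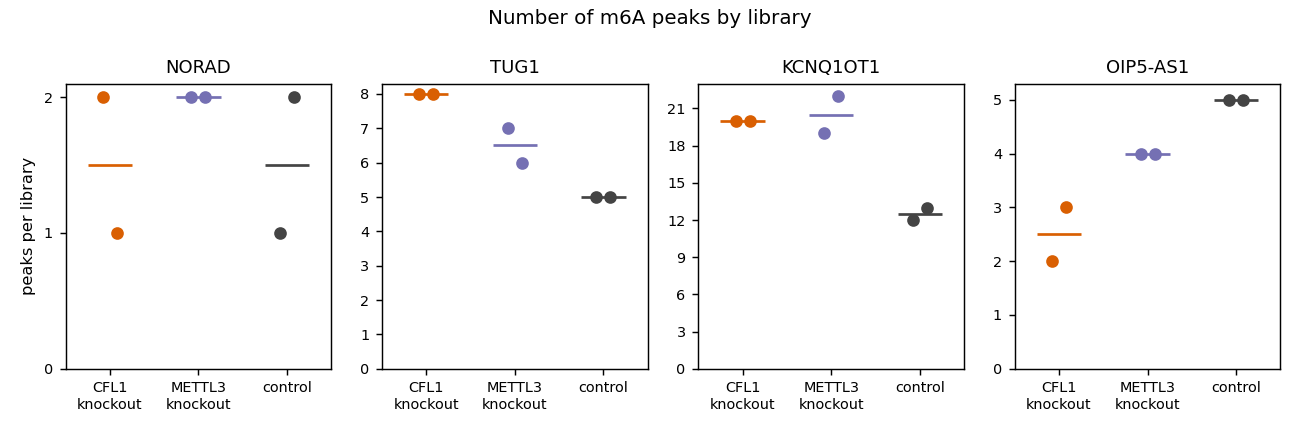
Number of m6A peaks (vertical axes, from 0) in each library over the 4 genes, with points for libraries and bars for the mean of 2 libraries. KCNQ1OT1 had 19 to 22 peaks in the knockout libraries against 12 and 13 in control, while OIP5-AS1 had 2 to 4 against 5 and 5.

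To see how unusual such a separation is, windows of fixed length with at least 6 peaks over the 6 libraries were tiled over the genome. In 10 kb windows, the scale of NORAD and TUG1, all 4 knockout libraries had more peaks than both control libraries in 11.7% of windows and fewer in 20.5%. In 25 kb windows, the scale of OIP5-AS1, the shares were 12.8% and 24.3%, and in 100 kb windows, the scale of KCNQ1OT1, they were 16.5% and 26.2%. Taken by knockout, CFL1 knockout lay above control in 20.5% of 10 kb and 25.8% of 100 kb windows, and METTL3 knockout in 17.7% and 24.9%. Separations of this kind were thus common, and 2 of 4 genes above and 1 of 4 below can be read only as a description.

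Sites were formed by joining overlapping peaks of all 6 libraries, which gave 46 sites in the 4 genes. All 6 libraries called 11 of them (23.9%), against 10.8% of sites over the genome. All 4 knockout libraries and no control library called 5 sites (background 3.63%), and both control libraries and no knockout library called 3 (background 13.3%). A further 15 sites were called only in 1 to 3 knockout libraries (background 41.9%), 4 only in 1 control library (background 19.3%) and 8 in other mixtures (background 11%). The knockout-only sites of all 4 libraries lay in KCNQ1OT1, which had 4, and in OIP5-AS1, which had 1. All 3 sites of both control libraries alone lay in OIP5-AS1.

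Counted as peaks, 12 of 48 control peaks in the 4 genes, or 25% (exact 95% interval 13.6 to 39.6), had no CFL1 knockout peak overlapping them, against a background of 57.8% of all control peaks. For METTL3 knockout it was 15 of 48, or 31.2% (18.7 to 46.3), against 57.7%. These intervals treat peaks as independent, although both control libraries often called the same site, so they are no test against the background. With each library left out, the shares were 20% to 37.5% for CFL1 knockout and 28% to 43.8% for METTL3 knockout. The losses were uneven, since OIP5-AS1 lost 8 of 10 control peaks in each knockout while TUG1 lost 0 of 10 and NORAD 0 of 3.

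In the other direction, 27 of 64 CFL1 knockout peaks, or 42.2% (29.9 to 55.2), had no control peak overlapping them, with a background of 53.2%. In METTL3 knockout it was 35 of 66, or 53.0% (40.3 to 65.4), with a background of 49.3%. These intervals treat peaks as independent as well and are no test against the background. KCNQ1OT1 held most of them, 23 of its 40 CFL1 knockout peaks and 28 of its 41 METTL3 knockout peaks.

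KCNQ1OT1, the chromatin-associated antisense RNA (hg19 chr11:2629558-2721228, 91671 bp), had 20 and 20 peaks in CFL1 knockout 3 and 5, 19 and 22 in METTL3 knockout 3 and 5, and 12 and 13 in control 1 and 2. Every knockout library was above both control libraries. The mean over the 4 knockout libraries was 20.2 ± 1.26 peaks, against 12.5 ± 0.707 in the 2 control libraries (SD), a difference of 7.75. An exact two-sided permutation test over libraries gave p = 0.0667, the smallest that 4 against 2 libraries allow. Each knockout alone gave p = 0.333 in the exact permutation test, the smallest for 2 against 2.

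Peaks covered 8659 and 9337 bp of KCNQ1OT1 in CFL1 knockout, 15675 and 13449 bp in METTL3 knockout, and 3614 and 4652 bp in control. As shares of the gene this was 9.45% and 10.2%, 17.1% and 14.7%, and 3.94% and 5.07%. Both METTL3 knockout libraries lay above both CFL1 knockout libraries, which in turn lay above control (exact permutation p = 0.333 for each pair of groups). In windows of 100 kb, CFL1 knockout covered more than control in 30.4%, METTL3 knockout in 32.7% and all 4 knockout libraries in 21.9%. In all, 2670 bases were covered in all 4 knockout libraries and in no control library, against 440 bases covered in both control libraries and in no knockout library. Such counts over the genome were not computed, and the knockout class requires more libraries than the control class.

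**Figure D2:**
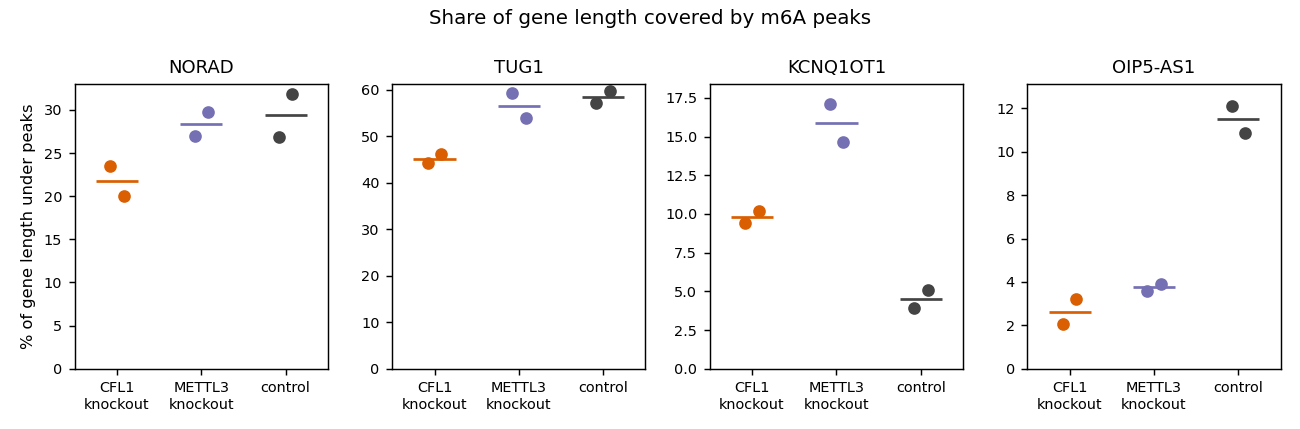
Share of each gene's length under m6A peaks (%, axes from 0) in each library, with points for libraries and bars for the mean of 2 libraries. KCNQ1OT1 shows 9.45% to 17.1% in knockout libraries against 3.94% and 5.07% in control, and OIP5-AS1 shows 2.05% to 3.90% against 12.1% and 10.9%.

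The peaks of KCNQ1OT1 were also stronger in the knockout libraries. Strength is given as the authors' −log10 q, which grows with read depth and with fold enrichment over background. The strongest peak reached 40.6 and 49.9 in CFL1 knockout, 72.6 and 56.8 in METTL3 knockout, and 13.9 and 15.3 in control. Its fold enrichment was 11.5 and 12.6, 14.9 and 10.9, and 8.31 and 7.24. Every knockout library was above both control libraries in both measures, while the 2 knockouts overlapped each other in fold enrichment, and the strongest peak was not the same site in every library. The −log10 q of the strongest peak lay above control for CFL1 knockout in 34.2% and for METTL3 knockout in 44% of windows of 100 kb, and for all 4 knockout libraries in 27.5%. The same share for fold enrichment was not computed, so how common its separation is remains unknown. The median −log10 q over all peaks of a library also differed, at 9.45 and 10.9 in CFL1 knockout, 11.3 and 10.2 in METTL3 knockout, and 7.66 and 7.52 in control, and its part in the result was not tested. Ranked within its own library, the strongest peak of KCNQ1OT1 lay in the top 17.8% and 19.2% in CFL1 knockout, 15.1% and 16.9% in METTL3 knockout, and 33.5% and 31.8% in control.

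**Figure D3:**
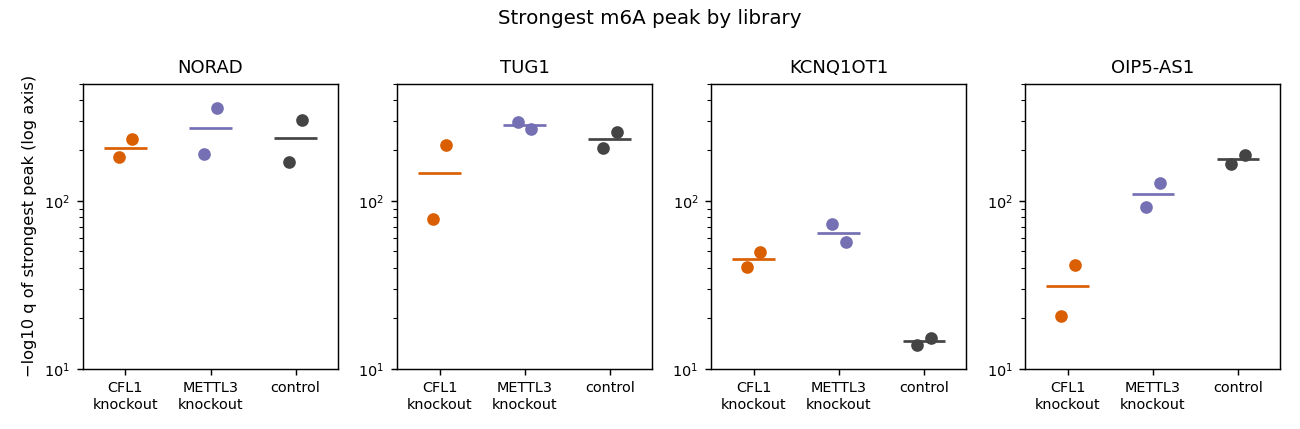
The −log10 q of the strongest m6A peak of each gene (log axis) in each library, with points for libraries and bars for the mean of 2 libraries. KCNQ1OT1 lies higher in knockout libraries (40.6 to 72.6) than in control (13.9 and 15.3), OIP5-AS1 lies lower (20.6 to 127 against 167 and 189), and NORAD overlaps.

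The difference in number also held for stronger peaks. Peaks with −log10 q of at least 10 numbered 7 and 10 in CFL1 knockout, 10 and 13 in METTL3 knockout, and 2 and 1 in control. Peaks with −log10 q of at least 20 numbered 4 and 5 in CFL1 knockout, 8 and 8 in METTL3 knockout, and 0 and 0 in control. Of all peaks of a library, 48.7% and 52.3% in CFL1 knockout, 53.5% and 50.3% in METTL3 knockout, and 41.8% and 41.7% in control reached 10. For 20 the shares were 31.1% and 36.2%, 37.0% and 34.7%, and 25.6% and 26.8%, so stronger peaks were more common in the knockout libraries as a whole. In 100 kb windows with at least 6 peaks of that strength, all 4 knockout libraries had more than both control libraries in 16.7% at 10 and in 16.4% at 20. Most of what control libraries showed over KCNQ1OT1 was weak, whereas the knockout libraries held several peaks of middle strength.

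KCNQ1OT1 had 30 sites, of which all 6 libraries called 4, all 4 knockout libraries and no control library called 4, and 1 to 3 knockout libraries alone called 13. Another 7 were mixed, 2 were called in 1 control library alone, and none was called in both control libraries alone. The strongest knockout site without a control peak lay at chr11:2662533-2663322. There −log10 q was 12.7 and 27.4 in CFL1 knockout and 72.6 and 48.2 in METTL3 knockout, with fold enrichments of 6.82, 10.8, 14.9 and 11.2. The other 3 sites called in all 4 knockout libraries and no control library, picked out after their values were seen, lay at chr11:2668335-2669297, chr11:2670152-2671756 and chr11:2677576-2678787. At the last of these, −log10 q was 39.9 and 35.1 in CFL1 knockout and 33.7 and 33.2 in METTL3 knockout, so the 4 libraries were close to each other.

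The strongest control site of KCNQ1OT1, at chr11:2665271-2666601, was called in all 6 libraries. Its −log10 q was 40.6 and 11.4 in CFL1 knockout, 26.7 and 33.4 in METTL3 knockout, and 12.6 and 15.3 in control. The highest point of the peak, its summit, fell within 2 bp in the knockout libraries (2666119 to 2666121) and more than 100 bp away in control, at 2666223 and 2666262. Among all 18877 sites of the genome called in all 6 libraries, 26.7% had a gap between the summits of the groups at least as large. At the same site, peaks covered 481 and 946 bp in CFL1 knockout, 1047 and 1098 bp in METTL3 knockout, and 407 and 394 bp in control.

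At chr11:2658299-2661614, also called in all 6 libraries and picked out after its values were seen, CFL1 knockout covered 1803 and 2421 bp and METTL3 knockout 3308 and 1819 bp, against 258 and 388 bp in control. The site was joined by overlap across the 3308 bp peak of METTL3 knockout 3, and not every knockout library had a peak where the control peaks lay. METTL3 knockout 5 had none there, since its peaks on either side ended at 2660367 and began at 2661361. The lengths therefore compare cover at partly different positions. The ratio of the means, 7.24, was the highest among the 4 KCNQ1OT1 sites of all 6 libraries, and 0.0848% of such sites over the genome had a ratio at least as high. The strongest site with control peaks that 1 knockout list lacked lay at chr11:2672782-2673392, with −log10 q of 9.32 and 4.12 in control and 5.01 in CFL1 knockout 5, and no peak in the other 3 knockout libraries.

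Peaks of KCNQ1OT1 were not spread evenly along the gene. Dividing it into 3 equal parts by coordinate, the middle part held 12 and 15 summits in CFL1 knockout, 13 and 13 in METTL3 knockout, and 7 and 9 in control. The part at the high-coordinate end held 2 and 0, 0 and 0, and 3 and 1, so the additional knockout peaks lay in the low and middle parts. Flanks of the gene's own length held few peaks. On the low-coordinate side there were 2 and 5 in CFL1 knockout, 1 and 3 in METTL3 knockout, and 0 and 1 in control, and on the high-coordinate side 1 and 1, 0 and 1, and 0 and 0.

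**Figure D4:**
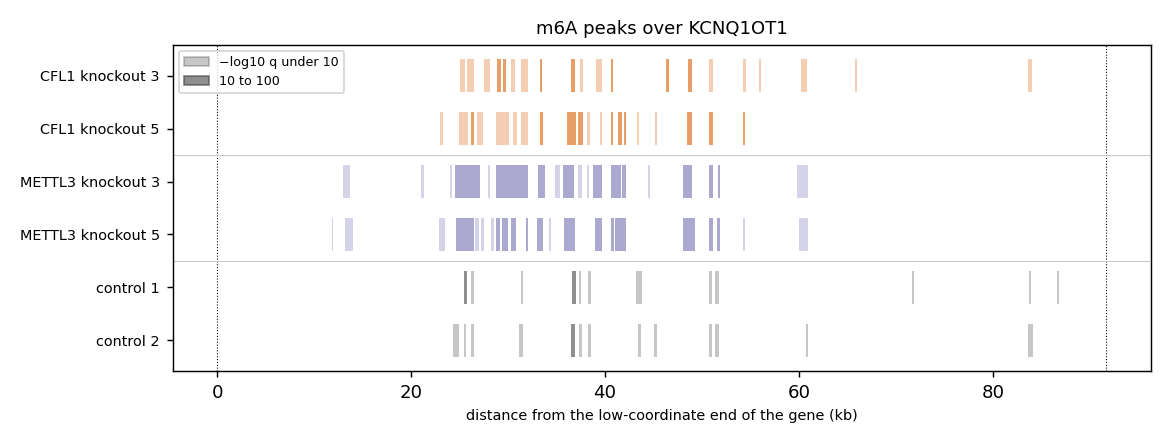
Peaks of each library over KCNQ1OT1, by distance from its low-coordinate end (kb), with dotted lines at the ends of the gene and darker bars for higher −log10 q. The knockout libraries have dense peaks through the low and middle parts, while control has 12 and 13 peaks in the whole gene.

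TUG1, the largely nuclear spliced RNA (hg19 chr22:31365634-31375381, 9748 bp), had the highest share of its length under peaks of the 4 genes, 44.2% to 59.8%. It had 8 and 8 peaks in CFL1 knockout, 7 and 6 in METTL3 knockout, and 5 and 5 in control. Knockout libraries again lay above control, with means of 7.25 ± 0.957 in the 4 knockout libraries and 5 ± 0 in control (exact permutation p = 0.133, smallest possible 0.0667). Among peaks with a fold enrichment of at least 4 the difference from control was only 0.5 for each knockout, the groups overlapped, and the exact permutation p was 1. The length under peaks was 4308 and 4494 bp in CFL1 knockout, 5787 and 5247 bp in METTL3 knockout, and 5562 and 5825 bp in control. The mean difference of CFL1 knockout from control was −1292.5 bp (0.773 times, exact permutation p = 0.333; 40.6% of 10 kb windows lay below control), while METTL3 knockout overlapped control.

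More peaks over no more length meant narrower peaks. The median width was 562 and 615 bp in CFL1 knockout, 679 and 670 bp in METTL3 knockout, and 1088 and 1163 bp in control, and the groups did not overlap (exact permutation p = 0.0667 for all knockout libraries against control). How many windows of the genome separate in width was not computed, so this separation is only a description. The widest peaks of all were nevertheless in METTL3 knockout, 2877 and 2656 bp, near the far end of the gene. At that site, chr22:31372110-31375081, each CFL1 knockout library had 3 peaks, each METTL3 knockout library 1 and each control library 2. The length covered there was 2061 and 2024 bp in CFL1 knockout, 2877 and 2656 bp in METTL3 knockout, and 2593 and 2655 bp in control. CFL1 knockout was below both control libraries and METTL3 knockout above them, METTL3 knockout 5 by 1 bp. Among sites called in all 6 libraries with at least 1000 bp covered in both control libraries, CFL1 knockout covered less than both in 49.7%. No genome share was set beside the METTL3 knockout side or the number of peaks per site.

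The site at chr22:31366407-31367827 was a single peak in control, 1406 and 1400 bp wide, with −log10 q of 207 and 256 and a fold enrichment of 5.83 and 6.07. Every knockout library had 2 peaks in its place, which covered 878 ± 66.6 bp against 1403 ± 4.24 bp in control, or 0.626 times as much. Of 5570 sites called in all 6 libraries with at least 1000 bp covered in both control libraries, 13.1% had a ratio that low. Choosing sites by control length favours low ratios. Of all 18877 sites called in all 6 libraries, 89.9% had a ratio at least as high. The stronger of the 2 peaks had a fold enrichment of 5.16 and 11.6 in CFL1 knockout and 12.1 and 12.5 in METTL3 knockout, so it was narrower than in control and, in 3 of 4 libraries, about double in enrichment. Its −log10 q was 70.7 and 216 in CFL1 knockout and 297 and 267 in METTL3 knockout, against the control values above.

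Both sites between these and the far end, at chr22:31368745-31369619 and chr22:31370988-31372105, were called in all 6 libraries. At the first, −log10 q was 37.0 and 76.1 in CFL1 knockout, 129 and 111 in METTL3 knockout, and 145 and 183 in control. At the second it was 34.4 and 76.2, 133 and 161, and 74.2 and 157. In −log10 q, CFL1 knockout was below both control libraries at the first site and overlapped them at the second. METTL3 knockout lay below control at the first and above or within it at the second. Fold enrichment at the first site was 4.44 and 6.03 in CFL1 knockout, 6.40 and 5.90 in METTL3 knockout, and 5.42 and 5.59 in control. METTL3 knockout thus lay above control in fold there. Every knockout library also covered more of that site, with 689 and 702 bp, 758 and 707 bp, and 583 and 652 bp. The ratio of the means was 1.16, and 31.2% of sites called in all 6 libraries had a ratio at least as high. No genome share was set beside −log10 q or fold enrichment at single sites, so these separations are only a description.

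At the hg19 start of TUG1, each knockout library had a peak that began within 1 bp after the gene's start or before it. Whether these peaks cover the GGAC matches of the sequence above was not determined. Its −log10 q was 15.2 and 30.8 in CFL1 knockout and 57.0 and 46.5 in METTL3 knockout. The first peak within the gene in control began 773 and 794 bp after the start. The summits of the 4 knockout peaks lay within 10 bp of each other, 31365706 to 31365716. In METTL3 knockout the peak reached 457 and 423 bp upstream of the start, in CFL1 knockout 5 it reached 8 bp, and in CFL1 knockout 3 it began 1 bp after the start. A separate upstream peak lay wholly outside the gene in all 6 libraries. It ended 239 and 212 bp before the start in CFL1 knockout, 615 and 572 bp in METTL3 knockout, and 822 and 824 bp in control, and joined by overlap it made this 1 of the 5 TUG1 sites counted as called in all 6 libraries. Its −log10 q was 165 and 244, 115 and 127, and 356 and 446, highest in control. The sixth TUG1 site, at chr22:31366054-31366275, was called in METTL3 knockout 3 alone, with a −log10 q of 19.6.

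NORAD, the cytoplasmic Pumilio-binding RNA (hg19 chr20:34633544-34638882, 5339 bp), had 2 and 1 peaks in CFL1 knockout, 2 and 2 in METTL3 knockout, and 1 and 2 in control. The groups overlapped in number and in the strength of the strongest peak. Its −log10 q was 183 and 232 in CFL1 knockout, 190.02 and 356 in METTL3 knockout, and 172 and 303 in control, with fold enrichments of 4.88 and 5.20, 3.94 and 7.56, and 4.37 and 6.11. The length under peaks was 1255 and 1070 bp in CFL1 knockout, 1441 and 1589 bp in METTL3 knockout, and 1436 and 1701 bp in control. CFL1 knockout was below control (0.741 times, exact permutation p = 0.333; 40.6% of 10 kb windows lay below) and METTL3 knockout overlapped it.

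That strong peak lay at the beginning of NORAD in every library, at chr20:34637369-34638943. Its summit was 547 and 527 bp from the gene's start in CFL1 knockout, 600 and 476 bp in METTL3 knockout, and 934 and 876 bp in control. All knockout summits were nearer the start, by a gap of at least 276 bp. Over the genome, 55.6% of the 18877 sites called in all 6 libraries had all knockout summits on one side of both control summits, and 12.6% did so with a gap at least as large. The peak crossed the start in both CFL1 knockout libraries and METTL3 knockout 5, by 20, 61 and 23 bases, while its near edge lay 25 bp after the start in METTL3 knockout 3 and 17 and 16 bp after it in control. Those distances are small beside the width of the peak, which covered 1188 ± 106 bp in the knockout libraries and 1467 ± 43.8 bp in control.

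A second NORAD site lay at chr20:34636508-34636913. It was called in CFL1 knockout 3 with a −log10 q of 8.17, in METTL3 knockout 3 and 5 with 6.14 and 5.47, and in control 2 with 58.9. CFL1 knockout 5 and control 1 had no peak there, so the libraries of a group disagreed. Peaks of any library covered 36.0% of NORAD, and the part of it beyond these sites had none.

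OIP5-AS1 (hg19 chr15:41576200-41601784, 25585 bp) was the gene with fewer peaks in the knockouts. It had 2 and 3 peaks in CFL1 knockout, 4 and 4 in METTL3 knockout, and 5 and 5 in control. CFL1 knockout lay below METTL3 knockout, which lay below control (3.25 ± 0.957 over 4 knockout libraries against 5 ± 0 in control, exact permutation p = 0.133). Scaled to 100000 peaks per library, CFL1 knockout averaged 3.64 peaks, METTL3 knockout 6.21 and control 6.37. The scaled difference of METTL3 knockout from control was thus only −0.156. For METTL3 knockout the direction also depended on strength. At −log10 q of at least 10 there were 1 and 2 peaks in CFL1 knockout, 4 and 4 in METTL3 knockout, and 3 and 2 in control, and METTL3 knockout lay above control, as it did in 21.7% of 25 kb windows with at least 6 such peaks. In 25 kb windows over all peaks, CFL1 knockout had fewer peaks than control in 29.2% and METTL3 knockout in 30.9%. The length under peaks was 524 and 818 bp in CFL1 knockout, 919 and 999 bp in METTL3 knockout, and 3103 and 2779 bp in control. Over the 4 knockout libraries this averaged 815 ± 208 bp, against 2941 ± 229 bp in control (exact permutation p = 0.0667, the smallest possible), and in 25 kb windows CFL1 knockout covered less than control in 42%, METTL3 knockout in 41.2% and all 4 knockout libraries in 32.8%.

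Most of that length was at 1 site, chr15:41590083-41591878, the strongest of the gene. In control it was 1 block, 1796 and 1758 bp wide, with −log10 q of 167 and 189. In CFL1 knockout the strongest peak there was 324 and 299 bp wide with −log10 q of 20.6 and 41.4, and in METTL3 knockout it was 335 and 379 bp wide with −log10 q of 92.5 and 127. In 25 kb windows the strongest −log10 q was below control for CFL1 knockout in 34.4%, for METTL3 knockout in 31.8% and for all 4 knockout libraries in 23.7%. The fold enrichment was 2.96 and 3.79 in CFL1 knockout, 5.37 and 7.52 in METTL3 knockout, and 5.50 and 4.92 in control, and no window share was computed for it. CFL1 knockout was thus below control in width, −log10 q and enrichment, while METTL3 knockout was below it in width and −log10 q but overlapped it in enrichment.

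The summits of the 6 libraries nevertheless coincided, within 41590509 to 41590569. A second, separate peak remained in CFL1 knockout 5 and both METTL3 knockout libraries at the far side of the block, with −log10 q of 3.60, 40.6 and 42.2, and the bases between were not under a peak. The knockout libraries covered 549 ± 155 bp of the site, against 1777 ± 26.9 bp in control, or 0.309 times as much. Only 1.04% of the 5570 wide sites called in all 6 libraries had a ratio that low. Wide sites have at least 1000 bp covered in both control libraries, a choice that favours low ratios, and their median ratio was 0.925. Of all 18877 sites called in all 6 libraries, 99.6% had a ratio at least as high. In 35.1% of the wide sites, and 25.7% of all 18877, all 4 knockout libraries covered less than both control libraries. In 6.3% of the wide sites the mean knockout length was under 50% of the control mean.

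Control peaks between the start and this site were not seen in the knockouts. The strongest site that both control libraries and no knockout library called, chr15:41580208-41580520, had −log10 q of 16.5 and 6.29. Both control libraries also called chr15:41578565-41578839 and chr15:41585143-41585700, the other two of that class and described after their values were seen, with −log10 q of 6.85 and 11.4 and of 14.2 and 3.96, and a single control library each called 2 further sites. All of these peaks were weak beside the main site.

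Knockout libraries had their own peaks nearer the start of OIP5-AS1. The site at chr15:41577227-41577449 had a peak in every knockout library and in none of control, with −log10 q of 7.45 and 12.01 in CFL1 knockout and 32.0 and 16.2 in METTL3 knockout. Both METTL3 knockout libraries also had a peak of 202 bp across the start, likewise described after its values were seen, with −log10 q of 10.8 and 17.7. The peak nearest the start began 1027 and 1028 bp after it in CFL1 knockout and 2368 and 2365 bp after it in control. By bases, 199 were covered in all 4 knockout libraries and in no control library, against 1828 in both control libraries and in no knockout library. Here too, counts over the genome were not computed, and the knockout class requires more libraries.

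Flanks of the length of OIP5-AS1 also held fewer peaks in the knockouts. On the side before the start there were 0 and 0 in CFL1 knockout, 1 and 1 in METTL3 knockout, and 3 and 2 in control, and on the far side 4 and 2, 2 and 2, and 7 and 7. The METTL3 knockout peaks before the start were the 202 bp peaks across it, also counted in the gene, with 95 and 97 bp on that side. Knockout libraries lay below control on both sides as well as in the gene. In 24.3% of 25 kb windows all 4 knockout libraries had fewer peaks than both control libraries. The lower number in the flanks can thus be read only as a description.

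**Figure D5:**
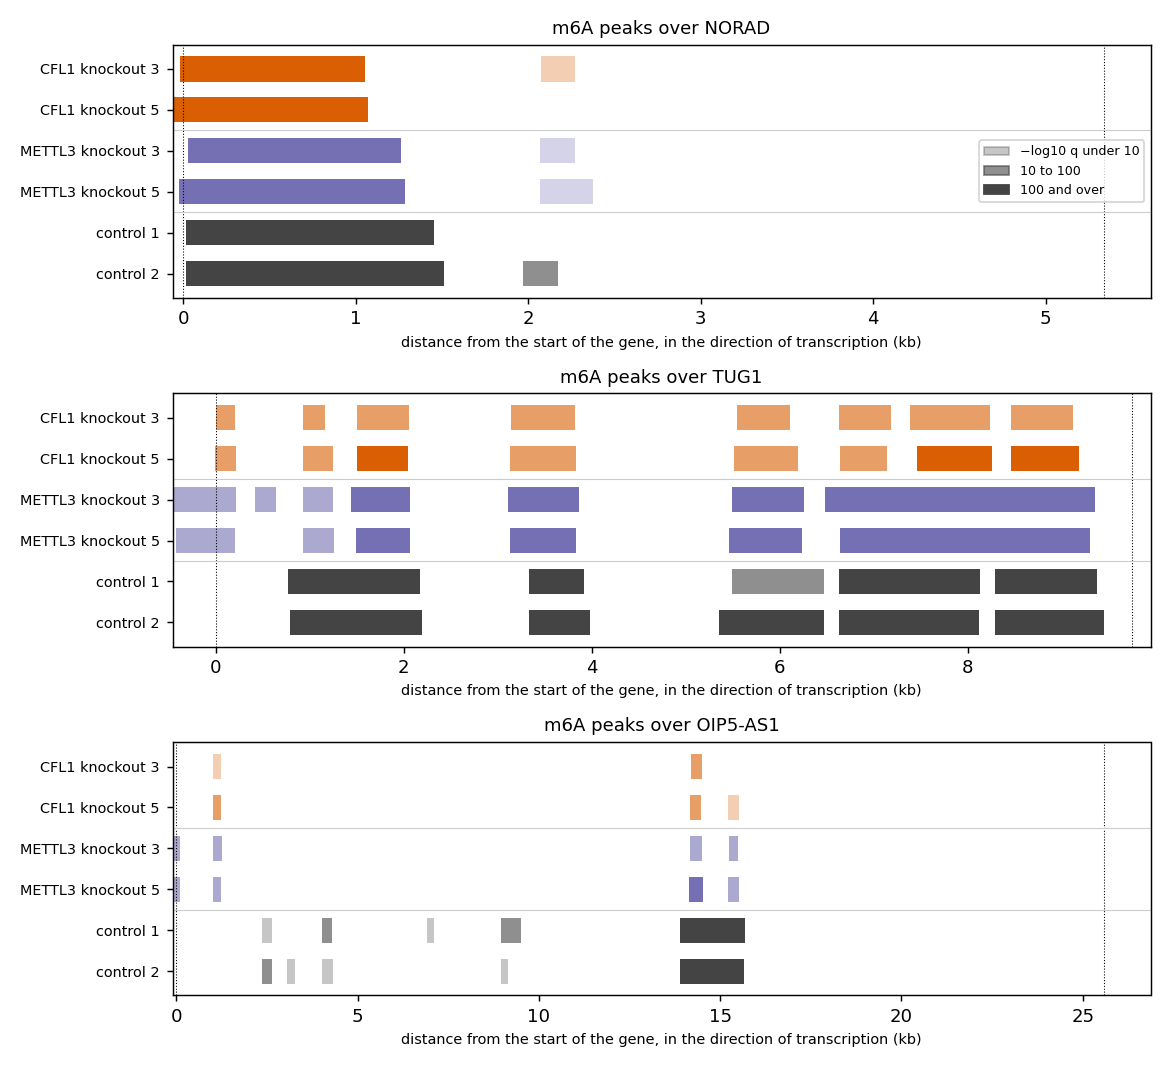
Peaks of each library over NORAD, TUG1 and OIP5-AS1, by distance from the start of the gene in the direction of transcription (kb), with dotted lines at both ends of the gene and darker bars for higher −log10 q. TUG1 has a peak at the start in every knockout library and none there in control, and the OIP5-AS1 block of 1796 and 1758 bp in control is 299 to 379 bp wide at its strongest peak in knockout libraries.

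The knockouts of CFL1 and METTL3 did not give the same values where both could be read. For length under peaks, CFL1 knockout lay below METTL3 knockout without overlap in all 4 genes (exact permutation p = 0.333 for each). The same held in 27.6% of 10 kb, 27.5% of 25 kb and 31.1% of 100 kb windows. CFL1 knockout minus METTL3 knockout averaged −352.5 bp in NORAD, −1116 bp in TUG1, −5564 bp in KCNQ1OT1 and −288 bp in OIP5-AS1. For the strongest −log10 q the 2 knockouts were likewise apart in TUG1, KCNQ1OT1 and OIP5-AS1, with CFL1 knockout lower, and overlapped in NORAD. That order was found in 31.2%, 32.3% and 37.9% of windows of 10, 25 and 100 kb.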

How the data were processed

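m6A sequencing of PANC-1 was analysed from 3 deposited peak lists, which stand for 12 of the 32 samples in the labels. The other 20 were not analysed here. Titles gave the groups, since control antibody samples carry a treatment label that reads none. Reads were aligned with STAR to hg19, peaks were called with MACS2 and bedtools was used, per the submitters' processing notes, with versions and settings not given in the sources used here. Each deposited fold enrichment of each peak is a ratio to background, and each deposited −log10 q is its adjusted p-value on a log scale. Both are the authors' values and describe or rank peaks. The numbers 3 and 5 of the knockout libraries come from the peak names and differ from the labels' replicate numbers.

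Peaks were assigned to the 4 hg19 gene intervals at 1 bp of overlap, and lengths were clipped to the gene. Group differences were tested by exact two-sided permutation over libraries. There are 3 splits for 2 against 2 and 15 for 2 against 4, so the smallest p-values are 0.333 and 0.0667 and no test can pass 5%. Each measure was tested in 4 genes and 3 comparisons, and p-values are unadjusted. Shares have exact (Clopper-Pearson) 95% intervals, which cover counting error only, and neighbouring peaks are not independent. The genes, lists and tests were chosen with earlier results of these data known. Sites named one by one are the strongest control site of a gene, its strongest control site lacking in a knockout list, and its strongest knockout site lacking in control, or all sites where a gene has at most 6. Other sites were chosen after their values were seen, which is said beside them. Scripts used Python 3.11.15, numpy 2.4.6, pandas 2.3.3, scipy 1.17.1 and matplotlib 3.10.9, and were tested on simulated data. Alternatives covered thresholds on −log10 q and fold, joining, overlap, scaling to 100000 peaks per library and leaving out each library. Promoter sequences and gene neighbours are from RefSeq tables (GRCh38.p14). NORAD, TUG1 and OIP5-AS1 matched the promoter table, and KCNQ1OT1 is named only. No coordinates were moved between builds, so the starts in the 2 builds need not be the same base. No hg19 genome was used here, so no sequence under a peak is shown.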

Additional observations from a re-analysis of the deposited data

Results flagged for a closer look

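At the far end of TUG1, chr22:31372110-31375081, the knockouts lay on opposite sides of control. Each CFL1 knockout library had 3 peaks and each METTL3 knockout library 1, against 2 in each control library, a difference of 2 between the knockouts. The length covered was 2061 and 2024 bp in CFL1 knockout, 2877 and 2656 bp in METTL3 knockout, and 2593 and 2655 bp in control, so that CFL1 knockout minus METTL3 knockout averaged −724 bp. No test was run of how the knockouts differ here, and METTL3 knockout 5 exceeded control 2 by only 1 bp. CFL1 knockout covered less than both control libraries in 49.7% of sites called in all 6 libraries with at least 1000 bp covered in both control libraries. No genome share was set beside the METTL3 knockout side or the number of peaks, so this is only a description.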

How the results depend on the processing

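The difference in number of peaks and in length covered between knockout and control kept its sign in KCNQ1OT1 under all 20 and 14 alternatives run, and over the 4 genes 6 of the 136 such alternatives changed sign and 9 moved to or from 0. For NORAD, where the number differed by 0 for CFL1 knockout and by 0.5 for METTL3 knockout, it was −0.5 and −0.5 at −log10 q of at least 10, 0.227 per 100000 peaks for CFL1 knockout, and −0.5 for METTL3 knockout with fold enrichment of at least 4. Per 100000 peaks the METTL3 knockout difference was 1.20, and both of its libraries then lay above control. Leaving out each library, the unscaled difference was −0.5 to 0.5 for CFL1 knockout and 0 to 1 for METTL3 knockout. For OIP5-AS1 in METTL3 knockout, a difference of −1 became 0 at −log10 q of at least 5, 1.5 at 10 and 0 with fold enrichment of at least 4. Per 100000 peaks it was −0.156. Leaving out each library, the length difference in METTL3 knockout was −186 to 79 bp in NORAD, above 0 without METTL3 knockout 3 or control 2, and −446 to 93.5 bp in TUG1, above 0 without METTL3 knockout 5. In NORAD it was −306 bp at −log10 q of at least 10 and −825 bp with fold enrichment of at least 4. Both METTL3 knockout libraries lay below control under those 2 settings, and no genome share was set beside them. For TUG1 the number of peaks no longer separated with fold enrichment of at least 4, at 0.5 for each knockout.

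The share of control peaks lost in METTL3 knockout was 19% at −log10 q of at least 10 (background 41.5%) and 21.4% with fold enrichment of at least 4 (background 52.8%). With each library left out, shares lost were 20% to 37.5% in CFL1 knockout and 28% to 43.8% in METTL3 knockout, and shares absent from control 40.6% to 46.9% and 46.9% to 59.1%. CFL1 knockout peaks absent from control were 50% counted by summit (background 58.8%), 48.1% and 47.4% at −log10 q of at least 5 and 10 (background 50.5% and 46.9%), and 48.6% with fold enrichment of at least 4 (background 59.9%), and METTL3 knockout peaks 65.2% by summit (background 54.9%). For sites, alternatives chosen after seeing the data gave 0 of both control libraries alone at −log10 q of at least 10, 3 of all 4 knockout libraries alone both there and with fold enrichment of at least 4, and 5 of all 6 libraries at that fold. No genome share at these thresholds was set beside these counts of sites, so they are only a description. The causes were not tested. No paired analysis was possible because the peak names number the knockout libraries otherwise than the labels number the samples. Unknown read depth limits comparison of −log10 q between libraries.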
